A study of Homo sapiens with 8 samples.

Results

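The enzymes described here reduce peroxides, oxidised thiols or quinones in the cell, or make glutathione: the thioredoxin pair TXN and TXNRD1, the peroxiredoxins PRDX1, PRDX2 and PRDX3, the glutathione peroxidases GPX1 and GPX4, the glutathione synthesis subunits GCLC and GCLM, and the quinone reductase NQO1. They were chosen by gene symbol, and 8 of the 10 had a row among the 4616 genes of the authors' deposited table. GCLC and GCLM, the catalytic and the modifier subunit of glutamate-cysteine ligase, had 0 rows and were not analysed here. Translational efficiency (TE, ribosome footprints over RNA) of TXN fell and that of GPX1 rose in cells carrying shTINCR, and the other 6 enzymes did not pass the test.

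The cells were WM902B, a line established from a primary melanoma and labelled BRAFV600E, at passage 18 in every library. They carried either shTINCR, a hairpin against the long non-coding RNA TINCR, or shSCR, a scrambled control hairpin, and all were given cycloheximide at 100 µg/ml for 5 min. Each condition had 2 libraries of ribosome-protected fragments and 2 of RNA, titled as total RNA and labelled polyA RNA, which the labels call biological replicates of 1 cell line. Cycloheximide stops elongation before the cells are lysed. The deposited values are TE values with the replicates already combined, so no value per library, no depth and no replicate spread can be given, and a change of TE cannot be divided into footprints and RNA. TINCR had 0 rows, so its silencing was not checked here. Of 9 markers of the melanocyte lineage 8 had a row, against 0 of 6 keratinocyte, 0 of 3 endothelial, 0 of 4 leukocyte and 1 of 5 fibroblast markers (COL1A2). The filter that decided which genes have a row is not stated in the sources at hand.

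Thioredoxin is a small dithiol protein that passes electrons to peroxiredoxins and other oxidised proteins, and thioredoxin reductase restores it with electrons from NADPH. Glutathione peroxidases draw on glutathione instead, and the cell makes glutathione from glutamate, cysteine and glycine. TXNRD1, GPX1 and GPX4 are selenoproteins: each carries selenocysteine, which the ribosome inserts at a UGA codon that would otherwise end translation. Many of these genes are transcribed under the control of NRF2, a factor stabilised by oxidants, and pigment synthesis in melanocytes itself generates oxidants.

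Of the 8 measured enzymes 1 rose and 1 fell at the deposited adjusted p below 0.05. Over all 4616 genes 16.4% were called, 8.23% as risen and 8.17% as fallen, and a count of 1 of 8 in each direction is near these shares. The median log2 change of the 8 enzymes was 0.06, against 0.02 over all genes, and the median size of the change regardless of sign was 0.12, against 0.166 over all genes, in the authors' deposited table. An approximate standard error was computed from each log2 change and its p-value, treating the p-value as one from a normal distribution. This implied SE lay between 0.0933 and 0.114 for the 8 enzymes, against a median of 0.13 over all genes. It covers whatever the authors' model took as noise and is not a spread between measured replicates.

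**Figure D1:**
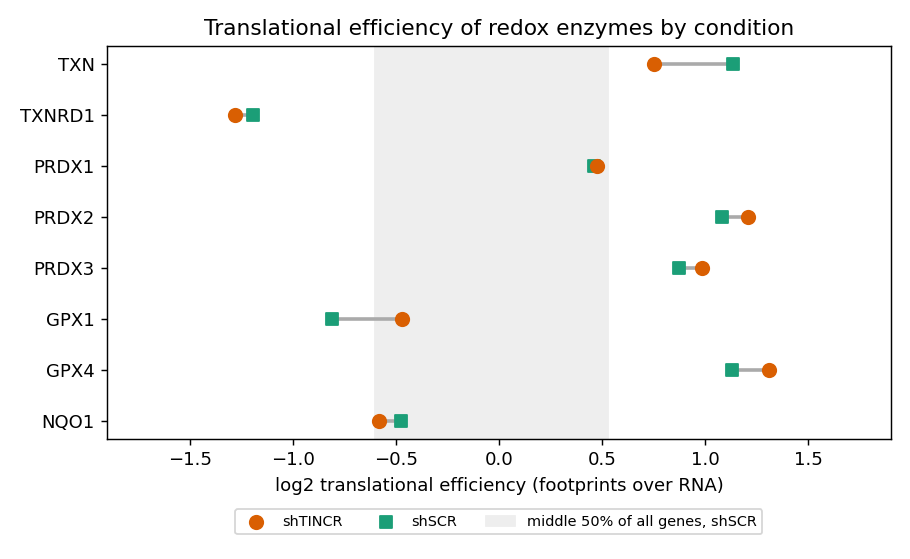
Each row is 1 redox enzyme, with its log2 TE in shTINCR cells (circle) and in shSCR cells (square) from the authors' deposited table, joined by a grey line. The grey band holds the middle 50% of all genes in shSCR cells. The lines of TXN and GPX1 are the longest, and they run in opposite directions.

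In the thioredoxin pair, the log2 TE of TXN was 0.75 in shTINCR cells and 1.13 in shSCR cells in the authors' deposited table. TE of TXN, the dithiol donor, stood at 76.8% of its shSCR value. The log2 change was -0.38 (implied SE 0.0941, adjusted p = 0.00138) by the authors' deposited table. Among all genes TXN lay at percentile 81.9 of TE in shTINCR cells and at percentile 92.8 in shSCR cells. It had the highest TE of the 8 enzymes in shSCR cells and came after GPX4, PRDX2 and PRDX3 in shTINCR cells. Which neighbours in these orders differ was not tested, since the levels come without an error. By size of the log2 change TXN ranked 549 of 4616 in the authors' deposited table.

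TXNRD1, the selenoprotein that reduces thioredoxin, had the lowest TE of the 8 enzymes in both conditions. Its log2 TE was -1.28 in shTINCR cells and -1.19 in shSCR cells, percentiles 8.75 and 10.1 of all genes, in the authors' deposited table. The log2 change of -0.09 did not pass (implied SE 0.0939, adjusted p = 0.561) by the authors' deposited table. TE is a ratio of footprints to RNA of the same gene, and length cancels in it only where both were counted over the same region. The counted regions are not stated in the sources at hand. With that limit, TE of TXN was 4.09 times that of TXNRD1 in shTINCR cells and 5.02 times in shSCR cells. These ratios come without an error and were not tested.

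The 3 peroxiredoxins use a cysteine to reduce hydrogen peroxide and are then restored by thioredoxin, PRDX1 and PRDX2 mainly in the cytosol and PRDX3 in mitochondria. None of the 3 passed. The log2 TE of PRDX2 was 1.21 in shTINCR cells and 1.08 in shSCR cells, a log2 change of 0.13 (implied SE 0.0952, adjusted p = 0.394), by the authors' deposited table. That of PRDX3 was 0.99 in shTINCR cells and 0.87 in shSCR cells, a log2 change of 0.11 (implied SE 0.0955, adjusted p = 0.448), by the authors' deposited table. PRDX1 had the smallest change of the 8 enzymes. Its log2 TE was 0.48 in shTINCR cells and 0.46 in shSCR cells, a log2 change of 0.02 (implied SE 0.109, adjusted p = 0.939), by the authors' deposited table. Relative to the median change of all genes the PRDX1 value was -0.000359, so it has no direction. PRDX2 stood at percentile 92.2 of TE in shTINCR cells and 91.9 in shSCR cells, PRDX3 at 88.8 and 87.3, and PRDX1 at 71.6 and 71.8, by the authors' deposited table.

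Of the glutathione peroxidases, GPX1 reduces hydrogen peroxide and soluble hydroperoxides, while GPX4 reduces lipid hydroperoxides within membranes and protects cells from ferroptosis, an iron-dependent death by lipid peroxidation. The log2 TE of GPX1 was -0.47 in shTINCR cells and -0.81 in shSCR cells in the authors' deposited table. TE of GPX1 rose 1.27-fold, with a log2 change of 0.34 (implied SE 0.114, adjusted p = 0.025), by the authors' deposited table. It lay at percentile 29.9 of all genes in shTINCR cells and 18.6 in shSCR cells, below the median gene in both. The call rests on the choice of threshold: it was lost at an adjusted p below 0.01 and under the Benjamini-Yekutieli adjustment, which allows any dependence between genes (adjusted p = 0.225, computed from the authors' deposited table). Those settings called 7.82% and 5.85% of all genes.

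GPX4 had the highest TE of the 8 enzymes in shTINCR cells and came next to TXN in shSCR cells. Its log2 TE was 1.31 in shTINCR cells and 1.13 in shSCR cells, percentiles 93.9 and 92.7 of all genes, in the authors' deposited table. The log2 change of 0.18 did not pass (implied SE 0.0985, adjusted p = 0.21) by the authors' deposited table. TE of GPX4 was 3.44 times that of GPX1 in shTINCR cells and 3.85 times in shSCR cells, without a test. Whether GPX1 and GPX4 differed in their change was not tested, since no value per library was at hand.

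NQO1 reduces quinones, and its amount is a widely used readout of NRF2. Its TE did not pass, and TE, a ratio to RNA, does not measure NRF2 activity. The log2 TE of NQO1 was -0.58 in shTINCR cells and -0.47 in shSCR cells, percentiles 25.9 and 29.5 of all genes, in the authors' deposited table. Its log2 change was -0.11 (implied SE 0.0933, adjusted p = 0.455) by the authors' deposited table. Counting by sign alone, 5 of the 8 enzymes had a positive and 3 a negative change, and TXN, TXNRD1 and NQO1 were the negative ones. Levels of the 8 enzymes were spread more widely than their changes, as were those of all genes. Over all genes the middle 50% of log2 TE in shSCR cells ran from -0.60 to 0.53. The middle 90% of the log2 changes of all genes ran from -0.38 to 0.43. The log2 TE of the 8 enzymes spanned 2.59 in shTINCR cells and 2.33 in shSCR cells, while the log2 changes ran between -0.38 and 0.34 in the authors' deposited table. In both conditions 5 of the 8 lay above the median TE of all genes, namely TXN, GPX4 and the 3 peroxiredoxins.

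**Figure D2:**
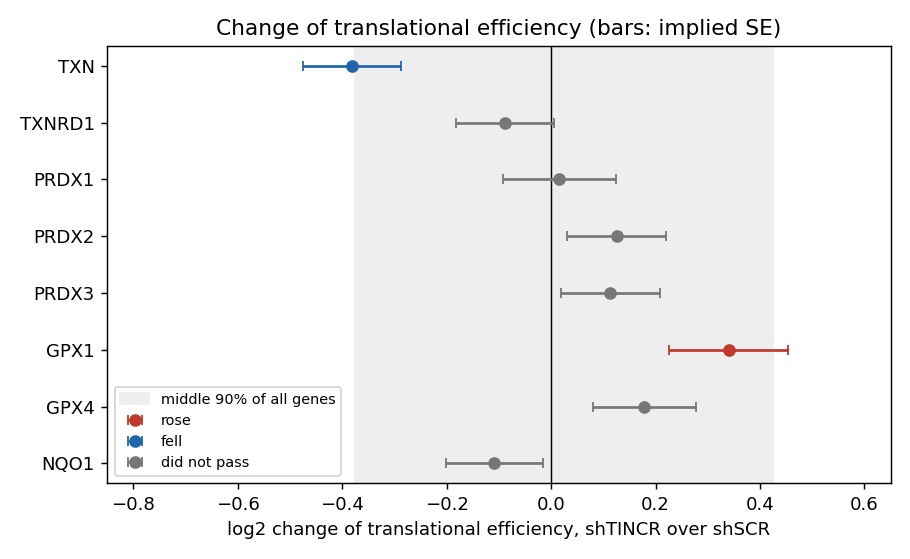
Each point is the log2 change of TE of 1 redox enzyme, shTINCR over shSCR, in the authors' deposited table, with a bar of 1 implied SE to each side. The grey band holds the middle 90% of all genes, -0.38 to 0.43. TXN (-0.38) lies just outside the lower edge of that band, GPX1 (0.34) lies inside it near the upper edge, and the other 6 lie closer to 0.

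The authors gave each change in 2 versions, each with its own p-value, and took the larger p-value as final. The 2 versions of a member's log2 change lay within 0.00154 of each other. TXN passed in version 1 (adjusted p = 0.00122) and in version 2 (adjusted p = 0.000255), each adjusted over all genes from the authors' deposited table. It also passed under the Benjamini-Yekutieli adjustment (adjusted p = 0.0124) of the p-values in the authors' deposited table. GPX1 passed in version 1 (adjusted p = 0.0152) and in version 2 (adjusted p = 0.0199) of the authors' deposited table. In each version 2 of the 8 enzymes were called, where version 1 called 17.9% and version 2 20.3% of all genes. Of the others, the nearest to the threshold was GPX4 in version 2 of the authors' deposited table (adjusted p = 0.122).

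**Figure D3:**
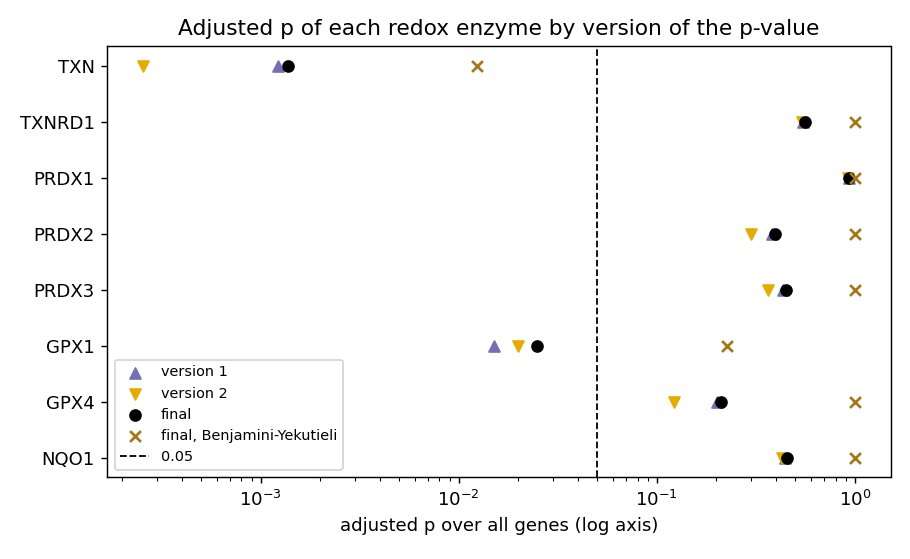
Adjusted p over all genes on a log axis for each redox enzyme, from version 1, version 2 and the final p-value of the authors' deposited table, and from the final p-value under the Benjamini-Yekutieli adjustment. The dashed line marks 0.05. All 4 symbols of TXN and 3 of the 4 of GPX1 lie left of the line, and those of the other 6 enzymes lie right of it.

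Several of these genes have pseudogenes, which can share reads with them. The RefSeq table of GRCh38.p14 names 7 pseudogenes of TXN, 4 each of PRDX2 and PRDX3, 2 of GPX1 and 1 of PRDX1, and 0 of TXNRD1, GPX4 and NQO1. TXN and GPX1, the called enzymes, are among the 5 of 8 with named pseudogenes, as are PRDX1, PRDX2 and PRDX3, which did not pass. The share of all genes with a named pseudogene was not counted, so no link between pseudogenes and calls can be read here. How the authors treated reads that match several places is not stated in the sources at hand. The TXN and GPX1 values are uncertain to that extent. Small nucleolar RNA genes lie inside 0 of the 8. TXNRD1 overlaps EID3, the ribosomal protein pseudogene RPL18AP3 and the antisense gene TXNRD1-AS1, NQO1 overlaps the antisense gene NQO1-AS1, and PRDX1 overlaps MMACHC. Whether the counting used strand is not stated in the sources at hand.

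Ribosomal protein and elongation factor mRNAs typically begin with a terminal oligopyrimidine tract, a C followed by a run of pyrimidines, through which mTORC1 controls their translation. The starts of the called enzymes and of 3 that did not pass are shown to let that feature be read directly, as 15 bases before and 15 from the annotated start, 5′ to 3′, with the first 5 transcribed bases in capitals (RefSeq, GRCh38.p14). Their positions are chr9:110256493-110256522 on the minus strand for TXN, chr3:49358339-49358368 on the minus strand for GPX1, chr19:1103979-1104008 on the plus strand for the first listed start of GPX4, chr19:12801786-12801815 on the minus strand for PRDX2 and chr10:119178798-119178827 on the minus strand for PRDX3.
TXN: caagcagcgagtcttGAAGCtctgtttggt
GPX1: cgccgccggccagttAAAAGgaggcgcctg
GPX4: agccgacgcgcgtccATTGGtcggctggac
PRDX2: gcccagggctcacttGGCGCtgagaacgcg
PRDX3: gtctctgcccgccccGTGGCgcccgagtgc
TXN starts with a G and GPX1 with an A in this annotation. Of the 8 enzymes 7 had a start window in the RefSeq table, with 10 annotated starts between them, and 0 of the 10 had a C followed by 4 pyrimidines (C or T, transcribed strand only) at the start. The same letters stand at 6.19% of the 5409 starts annotated for genes of the authors' table and at 4.07% of all 35116 starts. The search covered only the annotated first bases, and starts used in WM902B cells were not measured here.

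Genes that act around these enzymes were then counted in 6 lists, described by their counts and medians. Of 71 measured genes, each counted once, 9 rose and 7 fell (22.5% called, against 16.4% of all genes), with a median log2 change of 0.02, the same as over all genes, in the authors' deposited table. Of the called genes named below, PRDX5 overlaps TRMT112, MAFF overlaps TMEM184B, FTH1 overlaps BEST1, and PRDX6 and TXNDC9 each overlap another locus. PRDX5, TXNL1, ESD, GSTP1, ME2 and TALDO1 have 1 named pseudogene each. The part of shared reads in their values was not tested.

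Of 12 other measured genes of the thioredoxin and glutaredoxin system 2 fell and 0 rose, where 8.17% and 8.23% of all genes did. Their median log2 change was 0.02 in the authors' deposited table. A list of 12 genes is too small to set these counts apart from those shares. At an unadjusted p below 0.05, 3 were lower and 1 was higher, and over all genes 13.7% were lower and 15.8% higher by that measure. Both that fell encode thioredoxin-like proteins: TXNDC9, which binds the CCT chaperonin, changed by -0.44 on the log2 scale (adjusted p = 0.0109), and TXNL1, which associates with the proteasome, by -0.38 (adjusted p = 0.0472), by the authors' deposited table. Named with their values known, the thioredoxin inhibitor TXNIP stood at -0.23 (adjusted p = 0.346), and the mitochondrial pair TXN2 and TXNRD2 at 0.11 (adjusted p = 0.594) and 0.19 (adjusted p = 0.516) by the authors' deposited table.

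Of 7 other measured peroxiredoxins, peroxidases, catalase and superoxide dismutases 2 rose and 0 fell, where 8.23% and 8.17% of all genes did. Their median log2 change was 0.003 in the authors' deposited table. At an unadjusted p below 0.05, 2 were higher and 0 lower, where 15.8% and 13.7% of all genes were. A list of 7 genes is too small to set 0 apart from that share. Both that rose are peroxiredoxins. PRDX5, found in mitochondria, peroxisomes and cytosol, had a log2 TE of 0.96 in shTINCR cells and 0.61 in shSCR cells and rose 1.28-fold (adjusted p = 0.00359) by the authors' deposited table. PRDX6, which is restored by glutathione, had a log2 TE of 1.39 in shTINCR cells and 1.08 in shSCR cells and rose 1.24-fold (adjusted p = 0.00907) by the authors' deposited table. The authors' deposited table gave 0.003 (adjusted p = 0.981) for PRDX4, the peroxiredoxin of the endoplasmic reticulum, which is named with its value known. The 6 peroxiredoxins were put together after these values had been seen: 2 of 6 rose (8.23% of all genes), and 6 of 6 changes were positive as deposited (52.5% of all genes), of which those of PRDX1 and PRDX4 turned negative once the median of all genes was subtracted.

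Glutathione genes beyond the members were 15 in number, of which 3 rose and 1 fell, against 8.23% and 8.17% of all genes. Their median log2 change was 0.16 in the authors' deposited table. Counted at an unadjusted p below 0.05, 4 were higher and 1 was lower (15.8% and 13.7% of all genes). CHAC1, which degrades glutathione and is a target of ATF4, rose 2.42-fold (adjusted p = 5.72e-05), SLC3A2, the partner chain of the cystine transporter, 1.23-fold (adjusted p = 0.00804), and the glutathione transferase GSTP1 1.20-fold (adjusted p = 0.023) by the authors' deposited table. ESD, which hydrolyses S-formylglutathione, had a log2 change of -0.49 (adjusted p = 0.0123) by the authors' deposited table. Glutathione reductase (GSR) and glutathione synthetase (GSS), both named with their values known, stood at 0.17 (adjusted p = 0.384) and 0.07 (adjusted p = 0.631) by the authors' deposited table.

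Both routes depend on NADPH. Of 14 measured genes of NADPH supply 1 rose and 1 fell, against 8.23% and 8.17% of all genes. Their median log2 change was -0.01 in the authors' deposited table. Counted at an unadjusted p below 0.05, 3 were higher and 4 lower (15.8% and 13.7% of all genes). TALDO1 of the pentose phosphate pathway rose 1.22-fold (adjusted p = 0.019), and the mitochondrial malic enzyme ME2 had a log2 change of -0.40 (adjusted p = 0.0115) by the authors' deposited table.

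Of 16 measured genes among NRF2, its regulators and its other targets 3 rose and 1 fell, against 8.23% and 8.17% of all genes. Their median log2 change was -0.03 in the authors' deposited table. Counted at an unadjusted p below 0.05, 4 were higher and 2 lower (15.8% and 13.7% of all genes). The ferritin chains FTL and FTH1, which store iron, rose 2.15-fold (adjusted p = 1.4e-15) and 1.43-fold (adjusted p = 9.92e-05), and MAFF, a small MAF protein that pairs with NRF2, rose 1.38-fold (adjusted p = 0.00948) by the authors' deposited table. FTL had a low TE in both conditions, at percentile 6.72 of all genes in shTINCR cells and 0.823 in shSCR cells. With 20 and 27 named pseudogenes, the values of FTL and FTH1 are uncertain. UGDH, which makes UDP-glucuronate, had a log2 change of -0.40 (adjusted p = 0.0115) by the authors' deposited table. For NRF2 itself (NFE2L2, named with its value known) the authors' deposited table gave -0.28 (adjusted p = 0.12). None of these TE values measures transcription by NRF2.

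For the 3 selenoproteins among the members, the genes of selenocysteine insertion and of the factors that act on selenoprotein mRNAs were listed. Of 7 measured, 2 fell and 0 rose (8.17% and 8.23% of all genes), with a median of -0.03 in the authors' deposited table. At an unadjusted p below 0.05, 0 were higher and 2 lower, where 15.8% and 13.7% of all genes were. With 7 genes, 0 higher cannot be set apart from that share. The nucleolar protein NCL changed by -0.42 on the log2 scale (adjusted p = 0.000198) and the ribosomal protein RPL30 by -0.22 (adjusted p = 0.0413) by the authors' deposited table. Both serve ribosomes in the first place and bind selenoprotein mRNAs besides. NCL has 3 small nucleolar RNA genes inside it and RPL30 has 1 as well as 16 named pseudogenes, and the part of such reads in these values was not tested. SEPHS2, the selenophosphate synthetase, and SECISBP2L, a relative of the factor that binds the selenocysteine insertion element, both named with their values known, stood at 0.01 (adjusted p = 0.963) and -0.18 (adjusted p = 0.334) by the authors' deposited table.

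**Figure D4:**
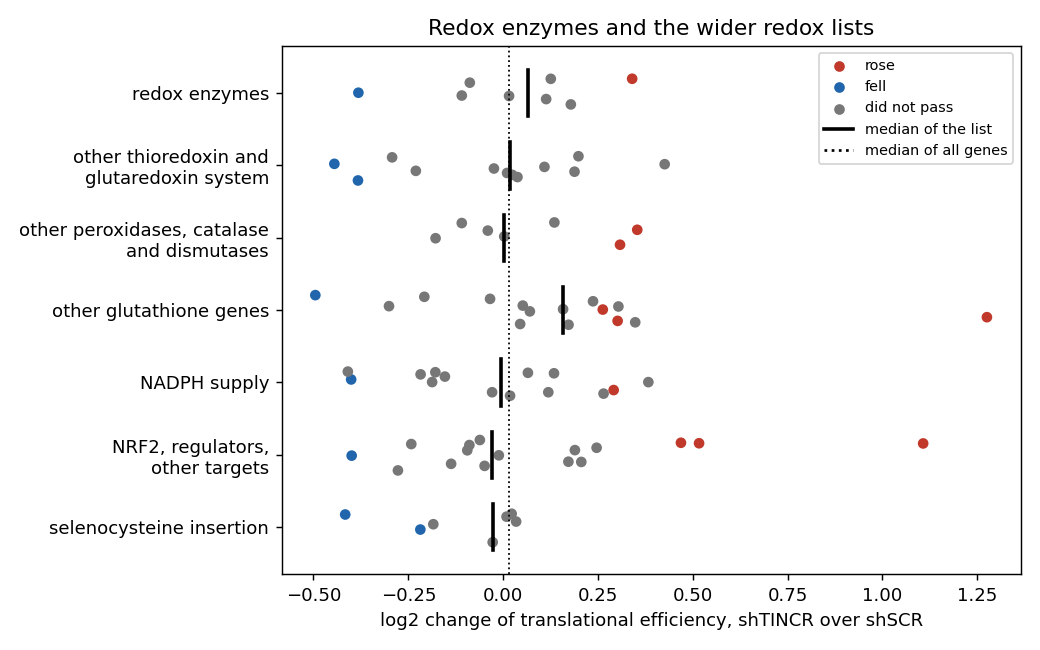
Each point is 1 gene, placed at its log2 change of TE, shTINCR over shSCR, in the authors' deposited table and spread vertically only to keep points apart. The redox enzymes stand in the top row and the 6 wider lists below, red for genes that rose, blue for those that fell and grey for those that did not pass. Black bars are list medians and the dotted line the median of all genes (0.02). The rows of the redox enzymes, the other glutathione genes, NADPH supply and NRF2 hold both red and blue points, while the row of the other peroxidases holds only red and the rows of the thioredoxin system and of selenocysteine insertion only blue ones beside the grey.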

How the data were processed

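Footprint and RNA libraries (8, in 4 groups of 2) were analysed through 1 table in which the authors compared shTINCR with shSCR. Per the file headers, the authors deposited a log2 TE for shTINCR and for shSCR cells, and a log2 change given as version 1, version 2 and final. Deposited p-values are 1 for each version, a final one and an adjusted one, per the file headers. Recomputing the Benjamini-Hochberg adjustment over the 4616 rows gave the deposited adjusted p within 1.95e-15, and in each row the larger of the versions' p-values was the final one. Without stating roles, the submitters' processing notes name hg19, DESeq 1.10.1, HTSeq 0.5.3p9, TopHat2 2.0.8 with Bowtie2 2.1.0, CASAVA 1.9 and SAMtools 0.1.18. The tool behind the table is not stated in the sources at hand.

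A deposited adjusted p below 0.05 was a call. Folds are 2 to the power of the log2 change. Percentiles are ranks over all rows. Computation used numpy 2.4.6, pandas 2.3.3, matplotlib 3.10.9 and scipy 1.17.1 under Python 3.11.15, with the adjustments tested on simulated data. No library could be tested on its own, so no count test was run. All members are named, and of each wider list the 2 genes of smallest p and at most 6 others that passed. The members and lists were chosen with earlier results of these data known. Planned features of protein sequence were not analysed here. Alternatives tried were either version of the p-value, thresholds of 0.01 and 0.1, the Benjamini-Yekutieli adjustment, a minimum log2 change of 0.3 and centring on the median of all genes. An adjustment over rows with a small implied standard error was added after seeing the data.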

Additional observations from a re-analysis of the deposited data

How the results depend on the processing

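TXN passed and the 6 enzymes that had not passed did not under each alternative run, though the stricter settings and centring could not have called these 6. The count of members that fell stayed at 1 throughout. GPX1 lost its call at 0.01 and under Benjamini-Yekutieli, leaving 0 members that rose, against 1. Over all genes those settings called 361 and 270, against 757. PRDX1 moved to -0.000359 on centring, against 0.02 as deposited. At 0.01 the counts were 0 fallen in the thioredoxin and glutaredoxin list (against 2), 0 fallen in the glutathione list (against 1), 0 risen and 0 fallen in NADPH supply (against 1 each), 0 fallen in the NRF2 list (against 1) and 1 fallen in the selenocysteine list (against 2). Benjamini-Yekutieli gave the same values for these, plus 1 risen in the peroxidase list (against 2) and 1 risen in the glutathione list (against 3). Smaller drops were 2 risen in the glutathione list at 0.01 and 2 risen in the NRF2 list under Benjamini-Yekutieli (against 3 each). At 0.1, 2 genes of NADPH supply rose and 2 fell of 14, against 11.5% and 10.4% of all genes. That threshold also gave 3 fallen in the thioredoxin list (against 2) and 4 risen in the NRF2 list (against 3). In version 1, 1 gene of the thioredoxin list rose (SESN2, named with its value known) and 2 of NADPH supply fell. In version 2, 3 genes of NADPH supply rose. That version also gave 3 fallen in the thioredoxin list (against 2) and 4 risen in the NRF2 list (against 3). With a minimum log2 change of 0.3, 0 genes of NADPH supply rose and 1 of the selenocysteine list fell. Over all genes 7.54% rose and 6.95% fell by that setting. In the glutathione list 2 rose under that setting (against 3). Stricter settings lower counts by construction, and for the differences between versions the cause was not tested. No paired analysis was possible because the table holds no value per library, and leaving out each replicate was not run for the same reason. The depth of the libraries is unknown.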

Other observations

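Since 3 of the members are selenoproteins, the human selenoproteins were also counted, in a list drawn up after these data had been seen. Of 25 symbols 12 had a row in the authors' deposited table, 1 of them rose (GPX1) and 0 fell, with 2 higher and 0 lower at an unadjusted p below 0.05, where 15.8% of all genes were higher and 13.7% lower. The median log2 change was 0.14, against 0.02 over all genes, and 9 of the 12 changes were positive, against 52.5% of all genes, in the authors' deposited table. SELENON, a protein of the endoplasmic reticulum, had a log2 TE of 0.63 in shTINCR cells and 0.27 in shSCR cells, a log2 change of 0.37 that did not pass (adjusted p = 0.0941), by the authors' deposited table. The share called was 8.33%, against 16.4% of all genes. A list of 12 genes is too small to set this share, or the 9 positive changes, apart from those of all genes.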
